A study of Mus musculus with 10 samples.

Results

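The 9 genes described here, Mbp, Mog, Mag, Mobp, Cnp, Mal, Cldn11, Ermn and Opalin, encode proteins of the myelin that oligodendrocytes wrap around axons. They were chosen by symbol as known myelin genes, and their rows were found by GENCODE mouse release M21 in a table of 57010 genes, of which 28506 had any count. All 9 were found, and 7 of them had enough counts to be tested between groups. The data are bulk RNA sequencing of mouse retina after injection of an adeno-associated virus (AAV) vector into the vitreous. The AAV2-GFP group of 5 mice received a green fluorescent protein (GFP) vector in the AAV2 capsid, and the AAV206-GFP group of 5 mice received a GFP vector named AAV206, which the study's title ties to the retinal pigment epithelium (RPE). All mice were 6 to 8 weeks old at the start and retinas were taken at day 14, so both groups carry an injected vector and the same reporter. Uninjected retinas were not analysed here. Strain, sex, eye and the promoter that drives GFP were not given in the labels used here, and the p-values measure the spread between these mice.

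Oligodendrocytes form the compact, lipid-rich sheath of central axons. The Mbp product holds its membrane layers together, while Mag, Mog and Cldn11 products sit at the inner surface, the outer surface and the tight junctions of the sheath. In the mouse, the axons of retinal ganglion cells run unmyelinated across the retina and gain myelin only behind the optic nerve head, in the optic nerve. Myelin transcripts are therefore a small component of a dissected retina, and in bulk RNA a library with fewer such cells and one with less RNA per cell cannot be told apart.

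Libraries held between 10989843 and 12752604 counts, so 3 counts, taken as the lowest level distinguished, equal 0.231 to 0.273 CPM (counts scaled to 1000000 per library, with library sizes adjusted by the trimmed mean of M values). Markers of the labelled tissue were abundant, with a summed level of 48620 to 57721 CPM for 5 rod photoreceptor genes. Mouse 1 of the AAV2-GFP group stood apart, with 59 counts of Prx, which encodes a protein of peripheral myelin, against 3 to 10 in the other 9 libraries. Pmp22 held 237 counts there against 108 to 160. Pmp2, Egr2, Ncmap, Drp2, Cldn19, Dhh and Cdh19, also genes of peripheral myelin or Schwann cells, lay within the range of the other libraries. The 6 microglia and macrophage genes of this mouse summed to 170 CPM against 17.2 to 36.6 CPM elsewhere. Mouse 4 of the AAV206-GFP group also stood apart, with 114 CPM over 4 Y-linked genes against 225 to 246 CPM in the other libraries. The labels give no sex and do not say whether RNA was pooled, so whether this library holds RNA of a single mouse was not tested, and it is called mouse 4 by its label only. For calls between the groups that rest on these 2 libraries, fits without 1 or both of them are given. Correlations and lines across mice use all libraries unless others are named, and were not repeated without these 2 together.

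Myelin transcripts varied widely between mice of the same group, and 1 of the 9 genes was called between the groups. The summed level of the 9 genes was 67.0, 120, 125, 62.2 and 185 CPM in AAV2-GFP mice 1 to 5 and 264, 56.3, 220, 57.8 and 268 CPM in AAV206-GFP mice 1 to 5. The lowest 4 libraries, mice 1 and 4 of the AAV2-GFP group and mice 2 and 4 of the AAV206-GFP group, thus came from both groups, and so did the higher levels. Between the groups, 1 of the 7 tested genes, Mal, was called higher with AAV206-GFP (edgeR quasi-likelihood test, Benjamini-Hochberg adjusted p under 0.05 over all 15539 tested genes). Over all tested genes 11.2% were called and 5.95% were called higher, so 1 of 7 is close to the share over all genes. All 7 fitted log2 fold changes of AAV206-GFP over AAV2-GFP lay above 0, against 48.2% of all tested genes, with a median of 1.03 against -0.01. The 7 genes vary together from mouse to mouse, so these are not 7 separate observations. At an unadjusted p under 0.05 edgeR again called 1 of 7, against 28.0% of all tested genes. None of the 9 genes separated the groups without overlap, which 9.78% of the tested genes did.

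**Figure D1:**
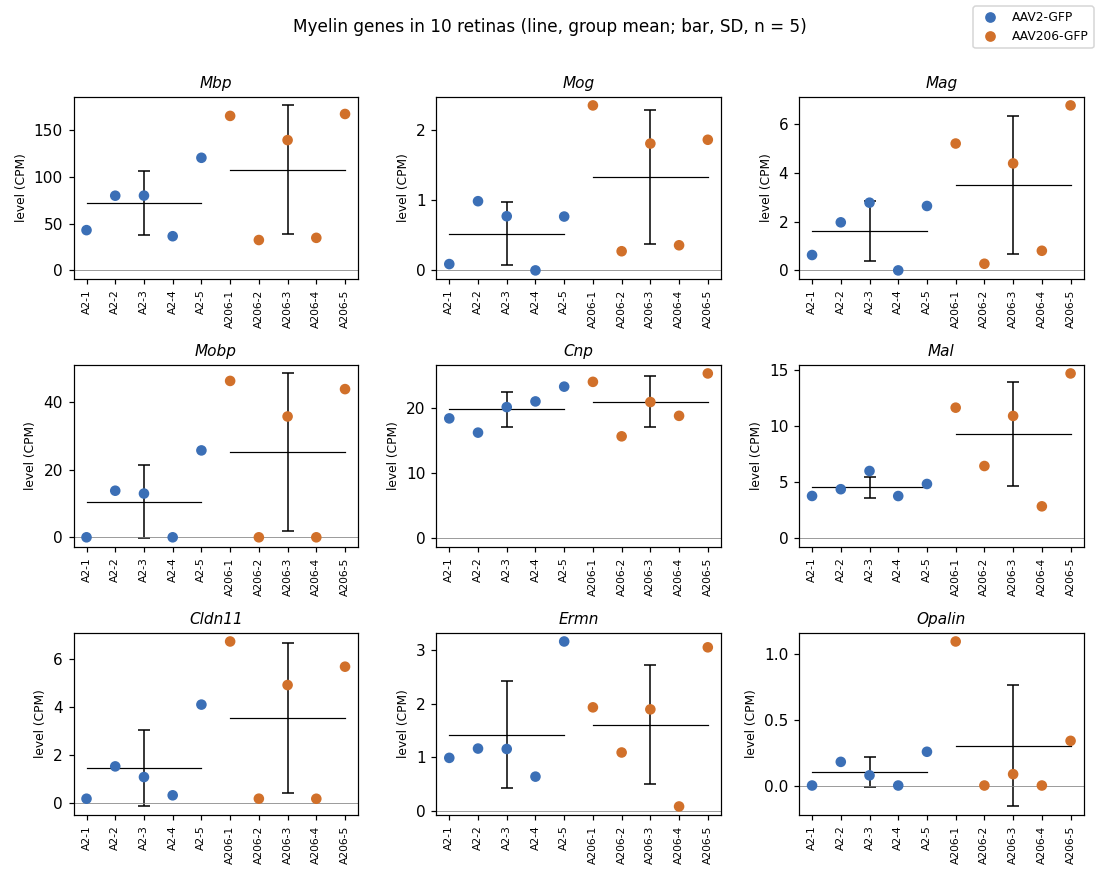
Level in CPM of each of the 9 myelin genes (1 panel each, own linear scale) in the 5 AAV2-GFP mice (A2-1 to A2-5, blue) and the 5 AAV206-GFP mice (A206-1 to A206-5, orange), with group means as lines and SD as bars. Mobp is at 0 in 4 mice, 2 of each group, and the same mice are low for Mbp, Mog, Mag and Cldn11, whereas Cnp varies only between 15.7 and 25.3 CPM.

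Among the genes of the membrane layers, Mobp gave the sharpest contrast between mice. Mobp (ENSMUSG00000032517; GRCm38 chromosome 9, 120149707 to 120181484, plus strand) encodes a small basic protein of the major dense line of compact myelin. It was at 0, 13.8, 13.0, 0 and 25.7 CPM in AAV2-GFP mice 1 to 5 and at 46.3, 0, 35.8, 0 and 43.9 CPM in AAV206-GFP mice 1 to 5. In 4 libraries no count was assigned to Mobp, and in the other 6 between 154 and 552 counts were. The 3 AAV206-GFP mice with Mobp counts were above every AAV2-GFP mouse, and the other 2 were at 0, so the groups overlapped. The group means were 10.5 ± 10.8 and 25.2 ± 23.3 CPM (SD, n = 5). The fitted log2 fold change was 1.27, with a standard error (SE) of 0.99 (edgeR adjusted p = 0.427). The fitted value depends on how libraries at 0 are treated.

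Mbp, the myelin basic protein gene, was the most abundant of the 9 in CPM. Its locus (ENSMUSG00000041607; GRCm38 chromosome 18, 82475146 to 82585637, plus strand) also gives rise to the golli transcripts, which are known from cells other than oligodendrocytes, and counts per gene do not separate these from the myelin forms. Mbp was at 42.9, 79.7, 79.8, 36.5 and 120 CPM in AAV2-GFP mice 1 to 5 and at 165, 32.4, 139, 34.7 and 167 CPM in AAV206-GFP mice 1 to 5. The 4 libraries without Mobp counts were the 4 lowest for Mbp, yet each still held 356 to 476 Mbp counts. Group means were 71.8 ± 33.7 and 108 ± 68.4 CPM (SD, n = 5). The log2 fold change was 0.59 with an SE of 0.42 (edgeR adjusted p = 0.378).

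Cnp behaved unlike the other members. It encodes the cyclic nucleotide phosphodiesterase of the cytoplasm-filled channels of myelin (ENSMUSG00000006782; GRCm38 chromosome 11, 100574904 to 100591729, plus strand). Its level was 18.4, 16.2, 20.1, 21.0 and 23.3 CPM in AAV2-GFP mice 1 to 5 and 24.0, 15.7, 20.9, 18.8 and 25.3 CPM in AAV206-GFP mice 1 to 5. The highest library thus exceeded the lowest 1.62-fold, and the libraries without Mobp counts held 171.7 to 261 Cnp counts. Means were 19.8 ± 2.66 and 20.9 ± 3.90 CPM (SD, n = 5), and the log2 fold change was 0.08 with an SE of 0.13 (edgeR adjusted p = 0.728). Cnp counts carried decimals in 6 libraries, so reads were divided with another gene there. Dnajc7 overlaps it on the opposite strand and the strand used in counting was not given in the sources used here, so Cnp levels are uncertain.

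Among the adhesion proteins, Mag and Mog followed Mobp at much lower counts. Mag (ENSMUSG00000036634; GRCm38 chromosome 7, 30899176 to 30914873, minus strand) encodes the myelin-associated glycoprotein of the inner, axon-facing layer. It was at 0.631, 1.97, 2.78, 0 and 2.64 CPM in AAV2-GFP mice 1 to 5 and at 5.20, 0.273, 4.39, 0.805 and 6.77 CPM in AAV206-GFP mice 1 to 5. The 4 lowest libraries were again those without Mobp counts, with 0 to 9 Mag counts against 22 to 80 in the others. Means were 1.60 ± 1.24 and 3.49 ± 2.83 CPM (SD, n = 5), with a log2 fold change of 1.12 and an SE of 0.71 (edgeR adjusted p = 0.319).

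Mog (ENSMUSG00000076439; GRCm38 chromosome 17, 37010743 to 37023398, minus strand), the gene of a glycoprotein on the outermost surface of the sheath, had too few counts for the fit. It held 1, 11, 10, 0 and 9 counts in AAV2-GFP mice 1 to 5 and 28, 3, 21, 4 and 22 counts in AAV206-GFP mice 1 to 5. The groups overlapped, and mice 1, 3 and 5 of the AAV206-GFP group were the highest. On the log2(CPM + 0.5) scale the AAV206-GFP mean was 0.77 higher (two-sided exact permutation of the group labels, p = 0.167, where the smallest possible value is 0.00794).

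Cldn11 (ENSMUSG00000037625; GRCm38 chromosome 3, 31149920 to 31164324, plus strand) encodes the claudin that forms the tight junctions between myelin layers. It was at 0.180, 1.52, 1.08, 0.322 and 4.09 CPM in AAV2-GFP mice 1 to 5 and at 6.71, 0.182, 4.90, 0.179 and 5.67 CPM in AAV206-GFP mice 1 to 5. The 4 libraries without Mobp counts held 2 to 4 Cldn11 counts, close to the floor of 3, and the other 6 held 14 to 80. Means were 1.44 ± 1.58 and 3.53 ± 3.12 CPM (SD, n = 5). The log2 fold change of 1.30, the largest fitted among the 7 tested members, had an SE of 0.79 (edgeR adjusted p = 0.298).

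Mal was the 1 member called between the groups, near the threshold. It encodes a raft-associated membrane protein that takes part in sorting lipids and proteins to myelin and is also known from epithelia (ENSMUSG00000027375; GRCm38 chromosome 2, 127633226 to 127656695, minus strand). Its level was 3.79, 4.39, 6.02, 3.78 and 4.86 CPM in AAV2-GFP mice 1 to 5 and 11.7, 6.46, 10.9, 2.86 and 14.7 CPM in AAV206-GFP mice 1 to 5. It was higher than every AAV2-GFP mouse in 4 of 5 AAV206-GFP mice, and the fifth, mouse 4, was the lowest of all 10. Means were 4.57 ± 0.928 and 9.33 ± 4.67 CPM (SD, n = 5), and the log2 fold change was 1.03 with an SE of 0.32 (edgeR adjusted p = 0.0465).

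The call for Mal was not stable. Leaving out any 1 library other than AAV206-GFP mouse 4 ended it, with edgeR adjusted p-values of 0.0517 to 0.111, although the log2 fold change stayed between 0.81 and 1.15 in those 9 fits. Without mouse 4 of the AAV206-GFP group, whose Y-linked counts were low, the log2 fold change was 1.26 (edgeR adjusted p = 0.00352). Without that library and AAV2-GFP mouse 1 together it was 1.20 (edgeR adjusted p = 0.00422). It was also lost by limma-voom (adjusted p = 0.149) and when edgeR was run with a filter at 1 CPM on average (adjusted p = 0.0513). No other member was called in any of these fits.

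Ermn and Opalin, both rather specific to mature oligodendrocytes, had low counts, and Opalin was under the floor of 3 counts in 7 of 10 libraries. Ermn (ENSMUSG00000026830; GRCm38 chromosome 2, 58045113 to 58052864, minus strand) encodes ermin, an actin-binding protein of the oligodendrocyte cytoskeleton, and Galnt5 overlaps it on the opposite strand. It held 11, 13, 15, 8 and 37 counts in AAV2-GFP mice 1 to 5 and 23, 12, 22, 1 and 36 counts in AAV206-GFP mice 1 to 5. Mouse 5 of each group was highest, and the means of 1.42 ± 0.991 and 1.61 ± 1.10 CPM (SD, n = 5) gave a log2 fold change of 0.19 with an SE of 0.54 (edgeR adjusted p = 0.855). Opalin (ENSMUSG00000050121; GRCm38 chromosome 19, 41061710 to 41077113, minus strand), which encodes a transmembrane sialylglycoprotein of oligodendrocytes, held 0, 2, 1, 0 and 3 counts in AAV2-GFP mice 1 to 5 and 13, 0, 1, 0 and 4 counts in AAV206-GFP mice 1 to 5. It was at 0 in the same 4 libraries as Mobp and above 3 counts in 2 libraries only, both of the AAV206-GFP group. The AAV206-GFP mean was 0.28 higher on the log2(CPM + 0.5) scale (exact two-sided permutation test, p = 0.516).

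**Figure D2:**
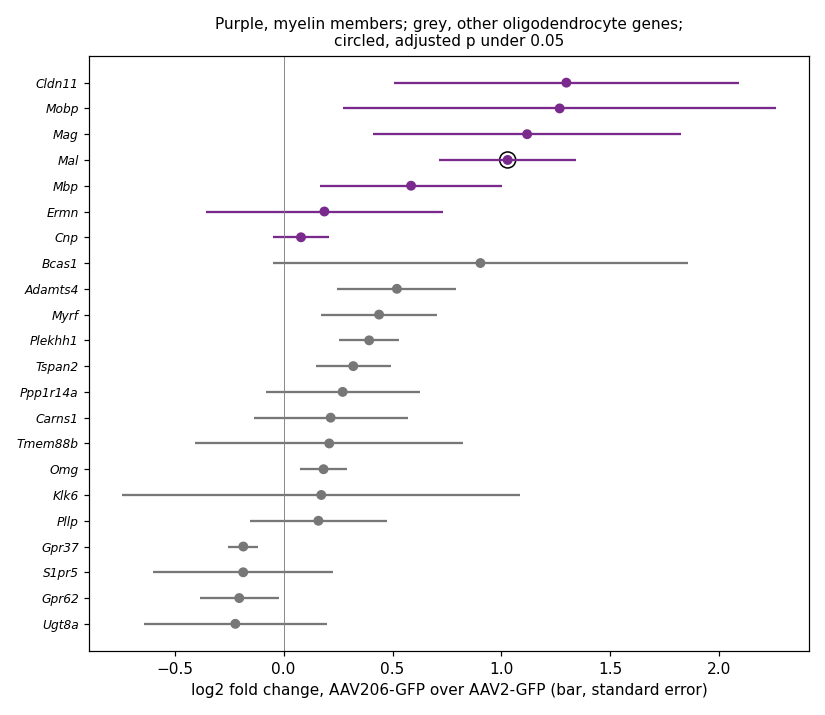
Log2 fold change of AAV206-GFP over AAV2-GFP with its standard error (edgeR) for the 7 tested myelin genes (purple) and 15 tested genes of the other oligodendrocyte lists (grey). Every purple point lies right of 0, from 0.08 for Cnp to 1.30 for Cldn11, and Mal alone is circled as past the adjusted threshold of 0.05.

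The spread between mice set the precision of these comparisons. The biological coefficient of variation fitted by edgeR, the relative spread of a gene between mice of 1 group beyond counting error, had a median of 0.554 over the 7 tested members against 0.120 over all tested genes. Mobp, at 1.60, varied more than 99.98% of the tested genes. Cldn11 had a value of 0.879, Mag of 0.804 and Mbp of 0.453, while Cnp was at 0.143, near the middle of all genes. Cnp is thus also the member whose fold change was measured most narrowly.

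Levels can be compared between genes only per length of exon, given here as CPM per kilobase (kb) over all 10 mice. The length is the union of all annotated exons of a gene, 8.47 kb for Mbp, 6.85 kb for Mobp and 3.64 kb for Cnp. It counts exons of every annotated form, expressed here or not, so the order depends on the annotation. Mbp was highest at 10.6 ± 6.40 CPM per kb (SD, n = 10), followed by Cnp at 5.60 ± 0.881. Mbp exceeded Cnp in 7 of 10 libraries, so their order turned in the other 3. Mobp at 2.61 ± 2.75 and Mal at 2.50 ± 1.46 CPM per kb were not ordered, with Mobp higher in 5 of 10. Cldn11 followed at 1.33 ± 1.38, above Mag in 7 of 10 libraries. Mag at 0.625 ± 0.561, Mog at 0.544 ± 0.481 and Ermn at 0.417 ± 0.273 CPM per kb lay within each other's spread. Opalin was lowest at 0.0688 ± 0.113 CPM per kb and lay under Ermn in all 10 libraries.

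The members varied together across mice. Over the 36 pairs of members, Pearson's r of the deviations of log2(CPM + 0.5) from the group mean ranged from 0.516 to 0.986 with a median of 0.766 (n = 10 mice). The tightest pair was Mbp with Cldn11, and Cnp had the lowest median over its 8 pairs, at 0.598. These are descriptions, since the genes of a library share its depth and its scaling and the list was chosen as 1 cell type. In the 6 libraries with Mobp counts alone, r with Mobp in CPM was 0.995 for Mbp, 0.982 for Cldn11, 0.909 for Mog, 0.899 for Mag, 0.893 for Mal, 0.801 for Cnp, 0.653 for Opalin and 0.561 for Ermn.

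The members differed in the level that remained where Mobp was at 0. Along the least-squares line over 10 mice, Mbp gained 2.87 ± 0.0906 CPM (SE) per CPM of Mobp from an intercept of 38.4 ± 2.29 CPM (SE). The 4 libraries at Mobp 0 lay at 32.4 to 42.9 CPM of Mbp, so Mbp kept a base level where no Mobp was counted. Cnp kept 15.7 to 21.0 CPM there on a line that started at 18.0 CPM, and Mal kept 2.86 to 6.46 CPM on a line that started at 3.58 CPM. Cldn11, by contrast, had an intercept of 0.0646 ± 0.185 CPM (SE), not distinguishable from 0, and Mag one of 0.464 ± 0.301 CPM (SE).

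**Figure D3:**
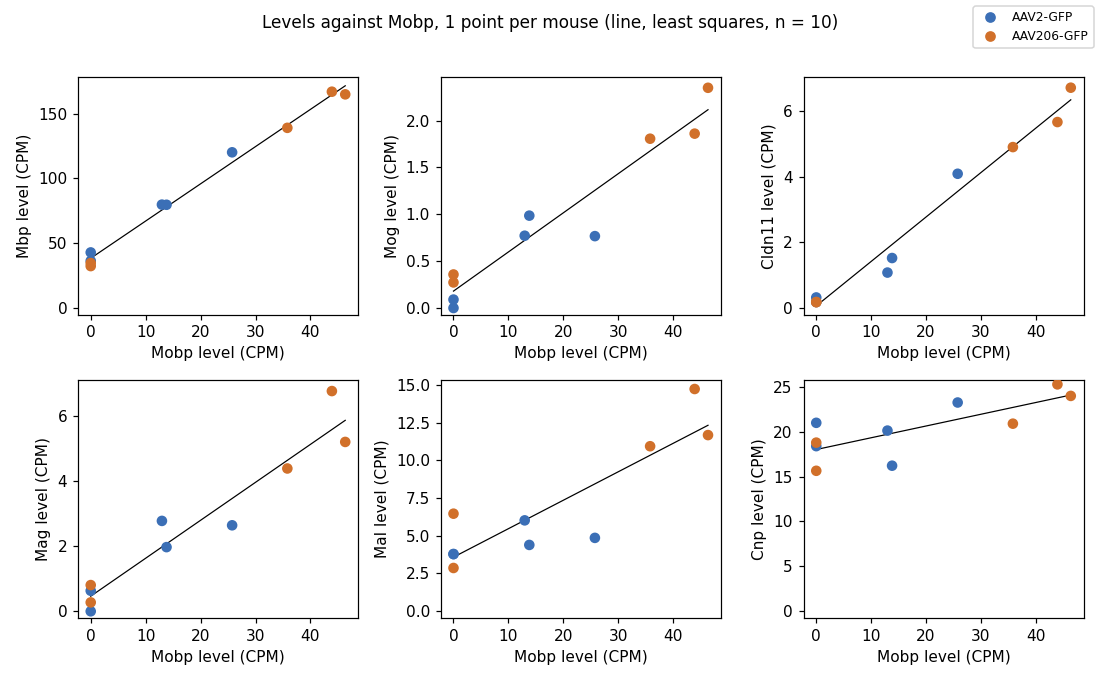
Levels of Mbp, Mog, Cldn11, Mag, Mal and Cnp in CPM (vertical axes) against the Mobp level in CPM (horizontal axes), 1 point per mouse, AAV2-GFP in blue and AAV206-GFP in orange, with the least-squares line over 10 mice. The line for Mbp meets the vertical axis at 38.4 CPM, that for Cldn11 at 0.0646 CPM, and points of both groups lie along each line.

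The sequences before the starts of 3 members are shown as a description. RefSeq windows on GRCm38.p6 were matched by symbol for 8 of the 9 members, in 10 windows of 250 bases before the start. They were searched on both strands for ACAAAG (the core bound by SOX factors such as Sox10), CAGCTG (an E-box of OLIG factors) and CTGGCAC or CTGGTAC (the core of MYRF, the myelin regulatory factor). ACAAAG was found for Mobp, Mag, Cnp and Opalin, 4 of 8 members, against 18.6% of all 27025 genes with a window. The MYRF core was found for Mag, Cnp and Mog, 3 of 8, against 6.79% of all genes with a window. CAGCTG was found for 0 of the 8, against 14.7% of all genes. The window of Mobp held 6 matches of ACAAAG, all as its reverse complement CTTTGT. That of Mag held 1 such match and 1 MYRF core, with no overlap between them. Cldn11, Mal and Ermn held none of the 3 motifs in the window. The stretches printed run from 5′ to 3′ on the strand of the gene and end before its first annotated base, with matches in capitals. They are chr9:120149492-120149706 on the plus strand for Mobp, chr7:30914874-30915113 on the minus strand for Mag and chr3:31149670-31149919 on the plus strand for Cldn11. A match or its absence describes the letters of this window only, and any relation to the levels across mice was not tested.
Mobp promoter: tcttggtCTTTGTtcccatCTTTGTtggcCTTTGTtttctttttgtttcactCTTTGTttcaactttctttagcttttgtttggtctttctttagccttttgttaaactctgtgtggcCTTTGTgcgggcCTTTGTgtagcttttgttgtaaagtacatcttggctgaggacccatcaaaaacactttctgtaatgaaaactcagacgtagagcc
Mag promoter: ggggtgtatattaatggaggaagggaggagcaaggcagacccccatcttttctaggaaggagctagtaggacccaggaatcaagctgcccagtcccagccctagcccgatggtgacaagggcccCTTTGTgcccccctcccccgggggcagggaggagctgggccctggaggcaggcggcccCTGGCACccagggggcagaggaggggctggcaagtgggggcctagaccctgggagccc
Cldn11 promoter: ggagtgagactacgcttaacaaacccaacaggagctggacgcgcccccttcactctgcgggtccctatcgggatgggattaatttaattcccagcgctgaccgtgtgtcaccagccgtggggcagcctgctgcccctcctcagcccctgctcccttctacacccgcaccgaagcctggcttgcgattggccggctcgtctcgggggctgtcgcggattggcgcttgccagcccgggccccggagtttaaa

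Other genes of the oligodendrocyte were examined in 4 lists: 17 further genes of mature oligodendrocytes and myelin, 4 enzymes of myelin lipid synthesis, 3 connexins and 6 transcription factors of the lineage. Of these 30 genes 17 could be tested and edgeR called 0 in either direction, against 11.2% of all tested genes. At an unadjusted p under 0.05 edgeR called 3, against 28.0% of all tested genes. Of the 17 fitted log2 fold changes 12 lay above 0, against 48.2% of all tested genes, with a median of 0.21. Those under the unadjusted threshold included Plekhh1 with a log2 fold change of 0.39 (edgeR adjusted p = 0.0743) and Gpr37 with -0.18 (edgeR adjusted p = 0.0910), both named because of their p-values. The factors Sox10, Olig1 and Olig2, which define the lineage, were near the floor, and none of them could be tested. Sox10 held 4, 7, 7, 0 and 25 counts in AAV2-GFP mice 1 to 5 and 15, 4, 17, 0 and 3 counts in AAV206-GFP mice 1 to 5. Olig2 held 0, 6, 0, 0 and 1 counts and 8, 0, 2, 0 and 3 counts in the same order, so it was at 0 in each library without Mobp counts.

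Likeness was measured as Pearson's r between a gene and the mean of 8 members, each scaled to unit SD, as deviations of log2(CPM + 0.5) from the group mean over 10 mice. Opalin, under 0.5 CPM, was left out of that mean.

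Among 15050 genes of at least 1 CPM those most alike included Bcas1 (r = 0.964), Daam2 (0.961), Kif5a (0.916), Jakmip1 (0.912), Gm26660 (0.910), Gm4673 (0.906) and Hps6 (0.905). Bcas1 encodes a protein of newly myelinating oligodendrocytes, Daam2 a formin known from oligodendrocytes, and Kif5a a kinesin heavy chain of neurons. Bcas1 and Daam2 stood above the others named, and 11 genes in all reached an r of 0.9. Over the 6 libraries with Mobp counts r was 0.636 for Bcas1, 0.695 for Daam2 and 0.430 for Kif5a. The levels of Kif5a were 256.8 to 490 CPM, and the 4 libraries without Mobp counts were its 4 lowest, at up to 309.5 CPM. Gm4673 and Jakmip1 counts carried decimals in all 10 libraries and are uncertain. The ranking was not stable, since a ranking by Spearman correlation kept 2 of the 8 highest genes.

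**Figure D4:**
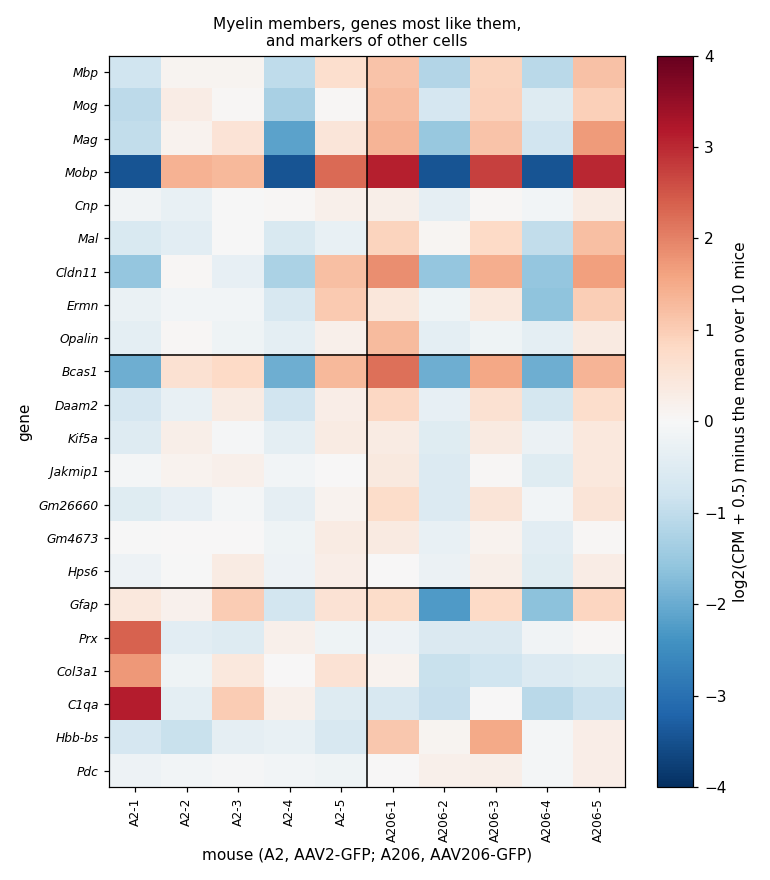
Deviation of log2(CPM + 0.5) from the mean over 10 mice for the 9 myelin genes (top), 7 of the genes most like them (middle) and markers of other cells (bottom), 1 column per mouse, with AAV2-GFP left of the vertical line. Colours end at 4 in both directions; blue marks the same 4 mice in most myelin rows, and Cnp is nearly white throughout.

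Markers of other cells that could enter the sample with optic nerve or sclera varied in how closely they moved with the myelin genes. Of the astrocyte list, Gfap and S100b were among the closest. Aldh1l1 and Aqp4, also named after their values were seen, were not, with an r of 0.258 and -0.261. Gfap, the intermediate filament gene of astrocytes, had an r of 0.905 with the mean of the members over 10 mice and the rank of 10 among all genes. Over the 6 libraries with Mobp counts alone that r was 0.642, and the r of Gfap with Mobp in CPM was 0.266. Gfap was at 43.7, 36.3, 66.0, 19.2 and 48.2 CPM in AAV2-GFP mice 1 to 5 and at 54.1, 6.28, 56.9, 10.02 and 59.4 CPM in AAV206-GFP mice 1 to 5. Of the 4 libraries without Mobp counts 3 were thus the lowest for Gfap, but AAV2-GFP mouse 1 was not. S100b, a calcium-binding protein gene of astrocytes that was named after its values were seen, had an r of 0.818 and a rank of 81 of 15050. Over the 6 libraries with Mobp counts its r with Mobp in CPM was 0.234. For the summed level of the 5 astrocyte genes, r with the members' mean was 0.635 over 10 mice. It was 0.371 without AAV206-GFP mice 2 and 4, the 2 farthest from the median of that mean. The median r of the 4 astrocyte genes measured was 0.538, from -0.261 to 0.905, against 0.203 for the 13 measured genes of the list of other myelin genes. The part of astrocyte RNA in the myelin levels was not tested. Of the 4 tested astrocyte genes 0 were called by edgeR and 0 at an unadjusted p under 0.05, against 11.2% and 28.0% of all tested genes. The list's summed level was 157.6 to 248 CPM over the AAV2-GFP mice and 152.9 to 219 CPM over the AAV206-GFP mice.

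Genes of peripheral myelin did not track those of central myelin across mice. Among 10 Schwann cell genes r with the members was -0.711 to 0.269 over the 7 of at least 1 CPM. AAV2-GFP mouse 1, with 59 counts of Prx against 3 to 10 elsewhere, was low for the central genes Mobp, Mag, Mog and Cldn11. Pmp2, Egr2, Ncmap, Drp2, Cldn19, Dhh and Cdh19 of this list were not set apart in that library. Of the 7 tested genes of this list edgeR called 1, Pmp2, a fatty acid binding protein of peripheral myelin, against 11.2% of all tested genes. Pmp2 had a log2 fold change of 2.66 (edgeR adjusted p = 6.7e-05), and its r with the members was -0.0785. In the AAV206-GFP libraries Pmp2 held 52 to 151 counts, where Prx held 3 to 8. Whether the RNA of Pmp2 came from Schwann cells was not tested. Among 10 genes of oligodendrocyte precursors 6 were tested and edgeR called 1, Lhfpl3, higher, against 5.95% of all tested genes. Lhfpl3 was at 60.6 ± 3.97 CPM in the AAV2-GFP group and at 81.4 ± 7.86 CPM in the other (SD, n = 5). Its log2 fold change was 0.43 with an SE of 0.07 (edgeR adjusted p = 0.00170). Lhfpl3 moved against the members across mice, with an r of -0.794, and its counts carried decimals. Pdgfra, a receptor gene of precursors, was at 7.81 to 13.7 CPM in all libraries. The precursor list was uneven in level, as seen in genes named after their values were seen. Neu4 was at 0 in 9 libraries, Gpr17 held 0 to 11 counts and Enpp6 0 to 9, while C1ql1 was at 56.1 to 84.4 CPM and Tnr at 85.9 to 141 CPM. Whether the RNA of Pdgfra or Lhfpl3 came from precursors was not tested.

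Red blood cell genes differed between the groups and had a median r with the members of 0.628 over 5 genes. The r of their summed level was 0.617 over 10 mice. It was 0.239 without AAV206-GFP mice 2 and 4, the 2 farthest from the median of the members' mean. Of the 5 genes edgeR called 4 higher with AAV206-GFP, against 5.95% of all tested genes. The summed level was 67.7 to 85.6 CPM over the AAV2-GFP mice and 100.3 to 318 CPM over the AAV206-GFP mice. It was highest in mice 1 and 3 of the AAV206-GFP group, which were also high for the myelin genes. Mouse 5 of that group, with the highest myelin sum (268 CPM), was at 141 CPM. Mouse 2, with the lowest myelin sum (56.3 CPM), was at 125 CPM. The part of red blood cell RNA in the myelin levels was not tested. Of 9 connective tissue genes 7 were tested and edgeR called 2 lower, Col3a1 with a log2 fold change of -1.56 (adjusted p = 0.0384) and Prelp with -0.44 (adjusted p = 0.00788). Over all tested genes 11.2% were called in either direction. Without AAV2-GFP mouse 1 the value for Col3a1 was -1.02 (edgeR adjusted p = 0.0956), and its call was lost in 10 of 20 alternative settings, at adjusted p-values of 0.0526 to 0.149 (limma-voom 0.0654, edgeR for the others). Of 5 tested microglia genes edgeR called C1qa lower, with -2.22 (adjusted p = 0.0326), and without AAV2-GFP mouse 1 it was -0.95 (edgeR adjusted p = 0.0683). That call was lost in 8 of 20 alternative settings, at adjusted p-values of 0.0632 to 0.171 (limma-voom 0.171, edgeR for the others). With all libraries, 4 of the 5 tested microglia genes had an unadjusted edgeR p under 0.05, against 28.0% of all tested genes. Their median log2 fold change was -1.20, and 0 of the 5 lay above 0.

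Genes of the retina's own cells and of the RPE also varied in their likeness to the members, with r from -0.299 to 0.537 for ganglion cell genes, 0.155 to 0.669 for rod genes, 0.123 to 0.415 for Mueller glia genes and -0.138 to 0.751 for RPE and pigment cell genes. Of 9 ganglion cell genes, 9 of them tested, edgeR called 1, Pou4f1, lower (log2 fold change -0.37, adjusted p = 0.00623), and their median r with the members was 0.153. For 5 rod genes the median r was 0.385, and edgeR called 2 of them higher, Pdc among these (log2 fold change 0.25, adjusted p = 0.0217). The 5 Mueller glia genes had a median r of 0.315 and 0 calls by edgeR, with 3 at an unadjusted p under 0.05. The 8 RPE and pigment cell genes, 5 of them tested, had a median r of -0.020 and 0 calls by edgeR, with 2 at an unadjusted p under 0.05. Over all tested genes 5.95% were called higher, 11.2% were called in either direction and 28.0% had an unadjusted p under 0.05.

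**Figure D5:**
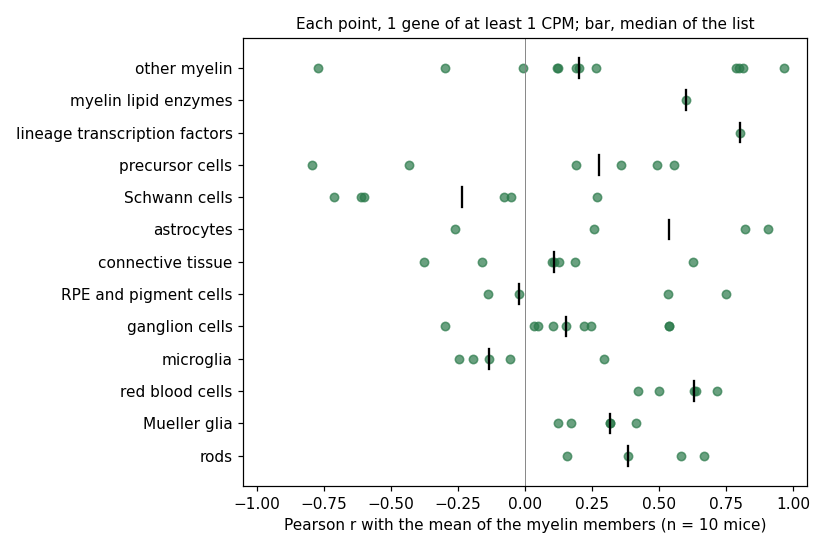
Pearson's r of listed genes of at least 1 CPM with the mean of the myelin members over 10 mice (horizontal axis), by list (vertical axis), with the median over all measured genes of the list as a bar. Bcas1 sits at the right end of the list of other myelin genes (0.964), whose median is only 0.203, and Gfap sits at 0.905 among the astrocyte genes.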

How the data were processed

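Retinas of 10 mice (5 per group) were profiled by bulk RNA sequencing. RNA was isolated with Trizol and NEBNext Ultra libraries were read as pairs of 150 bases, per the labels' protocols. The submitters' processing notes list STAR 2.7.10b, RSEM 1.3.1 and mm10, without their roles, and the annotation was not given in the sources used here. The authors deposited estimated counts for each gene without scaling, and 5.95% of the values carried decimals. The counts were rounded and tested with edgeR 4.0.16 in R 4.3.3 (filterByExpr with a minimum count of 10, TMM scaling, quasi-likelihood F test, Benjamini-Hochberg adjustment over all 15539 tested genes, threshold 0.05).

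Groups came from the sample titles, and no library was left out. Pairs of libraries in 1 group differed by more than sampling noise (chi-square per degree of freedom 3.68 to 22.3). Standard errors are the absolute log2 fold change over the square root of F. Members below the filter were tested by exact permutation of log2(CPM + 0.5). Names and coordinates are from GENCODE M21 on GRCm38 (mm10). The depth limits levels under 3 counts, which covers counting error only. Alternatives comprised library size, DESeq2 1.42.0 size factors and upper-quartile scaling, other filters, DESeq2, limma-voom (limma 3.58.1), the replicate block and leaving out libraries. The procedure was tested on simulated data. The members and lists were chosen with earlier results of these data known. Named are all 9 members, genes past the threshold in the lists (at most 4 for each other cell type, by p), Sox10 and Olig2, and the 8 genes most like the members; others were chosen after their values were seen. Some genes that this rule names are not reported here, although counts and medians over lists include them.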

Additional observations from a re-analysis of the deposited data

Results flagged for a closer look

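A single mouse set apart from the others of its group, by the ratio of its gap to the range of the group, was found in 4 of 62 group values over 31 genes, where chance gives about 3.1 (1 in 20). All 4 lay in the AAV2-GFP group. Among the members this was Ermn, at 3.15 CPM in AAV2-GFP mouse 5 against 0.644 to 1.17 CPM in the other 4 mice, with 37 counts behind the high value. Olig2, the lineage factor, was at 0.538 CPM in AAV2-GFP mouse 2, from 6 counts, against 0 to 0.0852 CPM in the others. Col3a1 was at 5.32 CPM in AAV2-GFP mouse 1 against 1.08 to 2.13 CPM, and C1qa at 48.5 CPM in the same mouse against 3.41 to 10.6 CPM. The 31 genes are a part of those measured, so the tally does not cover every gene in which 1 mouse stood apart. Prx, at 5.32 CPM in AAV2-GFP mouse 1 against 0.309 to 0.805 CPM in the others of its group, is not among the 4.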

How the results depend on the processing

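The call for Mal was the 1 member call, and it depended on the processing. Members called were 0 with a minimum mean of 1 CPM (Mal adjusted p = 0.0513 by edgeR), 0 by limma-voom (0.149) and 0 with a replicate block in edgeR (0.0577), and 0 to 1 when single libraries were left out. Of the 10 settings that did not leave out a single library 7 called Mal, DESeq2 among them. Over all genes 1747 calls became 1085 with the replicate block and 991 to 1912 without single libraries, the lowest being 991 without AAV2-GFP replicate 4, 1056 without AAV206-GFP replicate 4 and 1061 without AAV206-GFP replicate 2. Same-numbered libraries shared no deviations (r between -0.042 and 0.033) and 1 of 10 correlated best with its own number, so the numbers were not taken to pair mice. Of the 8 genes most like the members, 2 stayed by Spearman correlation and 3 to 5 without single libraries. Directions turned only for values near 0 or, with the Mobp level as a covariate (chosen after seeing the data), for Bcas1 (-0.82) and Ermn (-0.14). Ermn was -0.14 by limma-voom and -0.17 to 0.70 without single libraries, and Opalin was -0.0053 to 0.41. The ranges were -0.167 to 0.0434 for Gm4673, -0.149 to 0.0468 for Hps6 and -0.145 to 0.0899 for Jakmip1, and without AAV2-GFP replicate 1 and AAV206-GFP replicate 4 together Gm4673 was 0.0334 and Jakmip1 0.0558. The cause was not tested. Depth limits Mog, Opalin, Sox10, Olig1 and Olig2, whose counts are at or near 3 in several libraries.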

Other observations

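Outside the 9 members, absence of counts followed Mobp for few genes. In the whole data set 8 genes, Mobp included, had 0 counts in the 4 libraries without Mobp counts and at least 1 in each of the other 6. Of these, 5 were members or genes of the oligodendrocyte lists: Mobp, Opalin, Bcas1 with 28 to 101 counts in the 6 libraries, Olig1 with 5 to 22 and Klk6, a secreted protease of oligodendrocytes, with 4 to 20. The other 3, Sox1, Gm6085 and Gm9493, held at most 6 counts in any library. All 8 were named after their values were seen.

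The list of other myelin genes was itself uneven. Tspan2, Tmem88b and Carns1 had an r of 0.812, 0.799 and 0.788 with the mean of the members, and Myrf one of 0.802. Omg, a myelin glycoprotein gene that neurons are known to use as well, had an r of -0.770 and a level of 12.8 to 19.2 CPM. Gpr37, at 112 to 154 CPM, had an r of -0.296. These genes were chosen after their values were seen.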
